A study of Danio rerio with 18 samples.

Results

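Whole wild-type zebrafish (Danio rerio) embryos treated with all-trans retinoic acid (atRA) were compared between the later and the earlier of 2 stages, 12 somites and 80% epiboly. The comparison used 6 of the 18 RNA-seq libraries of the series, all those labelled atRA at these stages, with 3 replicates in each group. The 12 somites atRA group was exposed to 0.1 µM atRA from 80% epiboly until 12 somites. The 80% epiboly atRA group was exposed to 0.1 µM atRA from 30% epiboly until 80% epiboly. Control embryos of the same stages, given the solvent DMSO over the same periods, stayed out of the main test and were set beside it as a further 6 libraries. The remaining libraries were taken at 24 hpf (hours post fertilization). Their atRA group was labelled as treated with 0.1 µM atRA from 80% epiboly. Their control group was labelled with 0 µM over the same onset. All embryos were raised at 28°C in E3 medium, and RNA came from the entire embryo. The labels do not say how many embryos went into a library or whether replicates were separate clutches, so the p-values below measure the spread between these libraries, which may be technical.

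Retinoic acid is made from vitamin A and enters the nucleus, where it binds retinoic acid receptors that sit on DNA with retinoid X receptors. Binding of the ligand switches nearby genes on, and enzymes of the Cyp26 family break the ligand down, so that its level varies along the embryo. In vertebrate embryos it is known for setting position in the hindbrain and trunk and for its part in the formation of somites, heart and fins. During epiboly the cell sheet spreads over the yolk while gastrulation lays down the germ layers. During segmentation the somites, blocks of tissue that give rise to muscle and skeleton, form in sequence from head to tail, and the brain, notochord and early organs take shape.

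Both groups were treated, with different start and length of exposure, so stage, onset and length of exposure cannot be told apart. In RNA from whole embryos, fewer cells of a type and less RNA per cell cannot be told apart either. The labels name no preparation or sequencing batch, and a batch that followed stage cannot be told apart from it. The files list versioned Ensembl transcript IDs without gene names, and 0 of 58549 IDs were found in the name tables used here. Results are therefore counts, levels and fold changes of transcripts, no gene is named, and the labelled tissue was not checked against marker genes. Only 4 IDs are given individually, chosen by a fixed rule.

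Transcript counts summed to between 77807705 and 86123564 per library at 12 somites with atRA and to between 80522765 and 105463403 at 80% epiboly with atRA, so the depths overlapped. Of all IDs, 40056 to 40653 had at least 10 counts in the 12 somites atRA libraries, against 37359 to 38751 in the 80% epiboly atRA libraries, without overlap. The 100 most abundant transcripts of a library held 16.4 to 16.5% of its counts at 12 somites and 17.5 to 17.8% at 80% epiboly. Replicates were close in both groups. The lowest Pearson correlation of log2 CPM (counts scaled to a common library size) between replicates was 0.996 at 12 somites and 0.994 at 80% epiboly, across transcripts of libraries that share their stage. Over all transcripts, the common biological coefficient of variation came to 0.046 at 12 somites and 0.069 at 80% epiboly. Along the first principal component, which held 93.9% of the variance over the 6 libraries, the groups lay apart.

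Most of the measured transcriptome differed between treated embryos of the 2 stages. Of 40937 transcripts with enough counts to be tested, 33899 were called at an adjusted p under 0.05 (82.8%; quasi-likelihood test of edgeR, Benjamini-Hochberg adjusted). Of these, 17598 were higher at 12 somites (43% of those tested) and 16301 were lower (39.8%). The libraries of the groups did not overlap in 34325 transcripts (83.8%), and 33209 of these were among the calls. The median absolute log2 fold change of the calls was 1.04, and their median standard error was 0.1. Among the 17612 IDs that were not tested, 4952 had no count in any of the 6 libraries. Untested IDs held at most 0.046% of the counts in any of these 6 libraries.

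At least 2-fold differences were found for 17525 transcripts (42.8%), 10562 higher at 12 somites (25.8%) and 6963 lower (17%). The larger the fold, the more calls were rises. For transcripts at or under 3 counts in every library of a stage, the fold was taken as a lower bound against 3 counts. With these bounds, 5766 transcripts rose and 2023 fell at least 4-fold, so 74% were rises. At least 16-fold differences comprised 1558 rises and 206 falls. At 64-fold or more there were 376 rises and 27 falls, and rises made up 93.3%. TMM factors are meant to correct the scaling for composition. Most tested transcripts were called here, and neither scaling was checked against a measure of RNA amount. Using plain library totals instead of TMM moved the median log2 fold change of all tested transcripts from 0.051 to 0.28. The share of rises among the at least 2-fold calls was 70.3% with library totals and 60.3% with TMM. Rises made up the larger part of the at least 2-fold calls under both scalings, and likewise 59.5% of them with DESeq2 size factors.

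**Figure D1:**
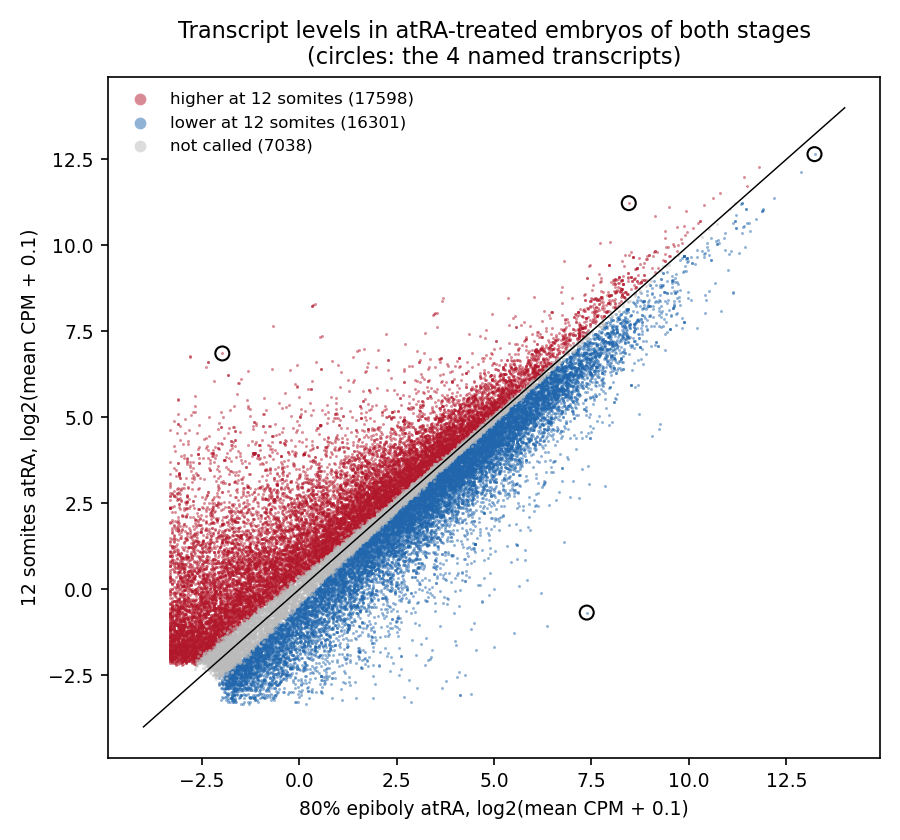
Mean level of each of the 40937 tested transcripts in the 12 somites atRA libraries (vertical axis) against the 80% epiboly atRA libraries (horizontal axis), as log2 of mean TMM-scaled CPM plus 0.1, with 3 libraries per group. Red points (17598) were called higher at 12 somites, blue points (16301) were called lower, and circles mark the 4 named transcripts; red points reach further from the diagonal than blue ones, mostly among transcripts that were rare at 80% epiboly.

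Rises and falls differed in level. Transcripts were divided by their mean CPM over the 6 libraries. Of 11861 transcripts under 1 CPM, 40.9% were at least 2-fold higher at 12 somites and 20.1% were at least 2-fold lower. From 1 to under 10 CPM the shares were 27.5% higher and 15.4% lower, over 15608 transcripts. From 10 to under 100 CPM the order turned, with 11.5% higher and 15.4% lower among 11550 transcripts. Of 1918 transcripts at 100 CPM or more, 4.85% were at least 2-fold higher and 20.5% at least 2-fold lower. On the TMM scale, abundant transcripts thus fell more often than they rose by this size, and rare transcripts rose more often than they fell. With library totals, rises made up 70.3% of all at least 2-fold calls, against 60.3% with TMM. Whether the order from 10 to under 100 CPM holds with library totals was not tested. The median standard error of the log2 fold change was 0.31 under 1 CPM and 0.042 at 100 CPM or more. A rare transcript passed the count filter when it was abundant enough at 1 of the stages, so the shares under 1 CPM depend on that filter.

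**Figure D2:**
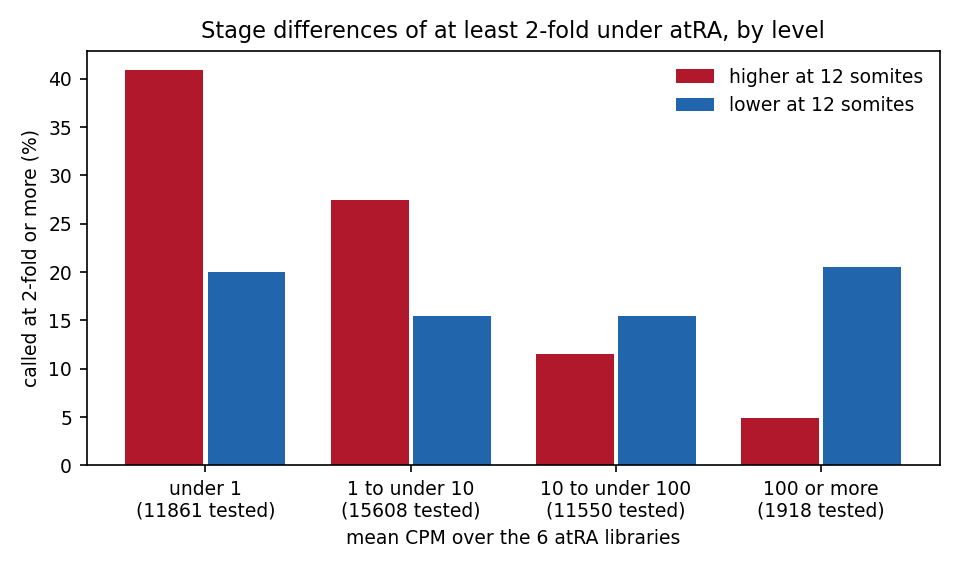
Share of tested transcripts called at least 2-fold higher (red) or lower (blue) at 12 somites than at 80% epiboly, both with atRA, in 4 classes of mean CPM over the 6 libraries. The share of rises fell with level, to 4.85% at 100 CPM or more, while the share of falls lay between 15.4 and 20.5% in the 4 classes.

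The same contrast appeared in the share of each library's counts. Transcripts called at least 4-fold higher (5813 by fitted fold) held 5.55 to 5.6% of counts in the 12 somites atRA libraries, against 0.516 to 0.562% in the 80% epiboly atRA libraries. Transcripts called at least 4-fold lower (2023) held 0.882 to 0.913% at 12 somites and 4.5 to 4.55% at 80% epiboly. Between 2- and 4-fold, the 4749 transcripts that rose held 7.69 to 7.85% at 12 somites and 2.54 to 2.68% at 80% epiboly. The 4940 that fell by this much held 8.66 to 8.71% at 12 somites and 19 to 19.1% at 80% epiboly, the widest gap in percentage points among the falls. The bulk of the counts lay in transcripts that changed less than 2-fold. Those that rose by less than 2-fold held 30.3 to 30.8% at 12 somites and 18.2 to 18.6% at 80% epiboly, and those that fell by less than 2-fold held 37.5 to 37.9% and 47 to 47.4%. These classes were defined by the same libraries, so the values describe them and are not a test.

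The control libraries were not used to define the classes. The at least 4-fold risers held 5.27 to 5.52% of counts in the 12 somites controls and 0.398 to 0.457% in the 80% epiboly controls. The at least 4-fold fallers held 1.03 to 1.06% in the 12 somites controls and 4.9 to 5.01% in the 80% epiboly controls. In controls, too, the libraries of the stages did not overlap in either class.

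**Figure D3:**
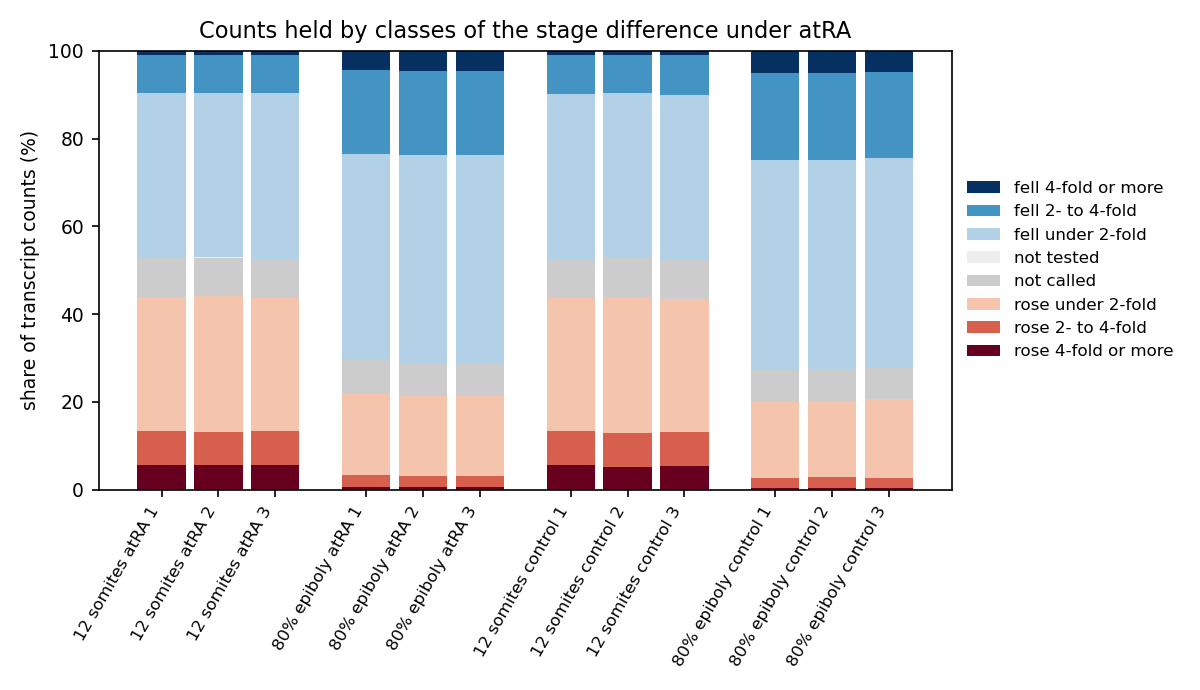
Share of transcript counts (percent) held in each library by transcripts grouped by their stage difference under atRA, 12 somites over 80% epiboly, for the 12 somites atRA, 80% epiboly atRA, 12 somites control and 80% epiboly control libraries (replicates 1 to 3 of each). The dark red class, called at least 4-fold higher, held 5.55 to 5.6% at 12 somites with atRA and 0.516 to 0.562% at 80% epiboly with atRA.

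A smaller set of transcripts was at or near absence at 1 stage. In 1029 of the 17598 rises, each 80% epiboly atRA library held at most 3 counts, and 170 of these had no count in any of the 3. Their levels at 12 somites were at least 3.26-fold higher and reached at least 1254-fold, with a median bound of 10.4. They were mostly rare at 12 somites, with a median transcript averaging 33.7 counts per library, although the most abundant averaged 4095 counts. In the other direction, each 12 somites atRA library held at most 3 counts in 128 of the falls, and 4 of these had no count in any of the 3. Their bounds ran from at least 4.38-fold to at least 512-fold lower, with a median of 9.25. Transcripts at the floor at 80% epiboly thus outnumbered those at the floor at 12 somites. Both sets passed the count filter only through the stage where they were higher. Their calls and lowest bounds depend on that filter, so these values describe the sets and are not a test.

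Part of these transcripts were at the floor in controls of the same stage as well. Of the 1029 that were at the floor at 80% epiboly with atRA, 718 were also at most 3 counts in every 80% epiboly control library, and 33 were above 3 counts in each of them. In the 12 somites controls, 981 were above 3 counts in every library. Of the 128 at the floor at 12 somites with atRA, 60 were also at the floor in every 12 somites control library and 16 were above it in each. The floor is a raw count and covers counting error only.

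Transcripts eligible for naming were called and without overlap between the groups by rule. For the named ones, non-overlap and small p-values of the stage difference follow from that choice and are no further evidence. Among eligible transcripts, ENSDART00000134098.1 had the largest fold rise. It stood at 123, 114 and 111 CPM in the 12 somites atRA libraries, against 0.0741, 0.172 and 0.217 CPM in the 80% epiboly atRA libraries, where it held 6 to 16 counts. All 12 somites libraries lay far above all 80% epiboly libraries. In the edgeR fit the log2 fold change was 9.58 (adjusted p = 3.44e-17), and the next largest among eligible transcripts was 8.67. With single atRA libraries left out in turn, the log2 fold change of this transcript ran from 9.25 to 9.85. The SE of the fold is left out, because it understates the error of so large a fold against few counts. In controls the transcript averaged 116 ± 5.39 CPM at 12 somites and 0.115 ± 0.044 CPM at 80% epiboly (SD, n = 3 each), a log2 fold change of 10.01. The stage differences with and without atRA differed by -0.45 (SE 0.38), which was not called (adjusted p = 0.403, edgeR).

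ENSDART00000133353.1 gained the most CPM among eligible transcripts. It stood at 2348, 2303 and 2545 CPM in the 12 somites atRA libraries, against 382, 377 and 295 CPM in the 80% epiboly atRA libraries, without overlap. It was already abundant at the earlier stage, unlike the transcript with the largest fold. In the edgeR fit the log2 fold change was 2.8 with SE 0.076 (adjusted p = 6.22e-14). In controls the levels were 2899 ± 206 CPM at 12 somites and 325 ± 60.8 CPM at 80% epiboly (SD, n = 3 each), a log2 fold change of 3.2. The rise with atRA was smaller than in controls by 0.43 on the log2 scale (difference -0.43, SE 0.14, adjusted p = 0.0299, edgeR). The call was lost by DESeq2 (adjusted p = 0.143). It was also lost when replicate 1 or 2 of either atRA group or replicate 1 or 3 of either control group was left out, 8 of the 12 libraries, with differences of -0.41 to -0.29 and adjusted p of 0.0577 to 0.117 (edgeR).

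ENSDART00000065817.3 had the largest fold fall among eligible transcripts. It stood at 0.506, 0.593 and 0.478 CPM in the 12 somites atRA libraries, which held 42 to 55 counts, against 155, 174 and 170 CPM in the 80% epiboly atRA libraries. The groups did not overlap, and the edgeR fit put the log2 fold change at -8.27 (adjusted p = 2.6e-17), ahead of -7.76 for the next eligible transcript. With 1 library left out, the log2 fold change ran from -8.36 to -8.19. Its SE is not printed, since it understates the error of so large a fold against few counts. In controls the transcript averaged 4.1 ± 0.156 CPM at 12 somites and 372 ± 21.3 CPM at 80% epiboly (SD, n = 3 each). The atRA libraries were thus lower than the controls at both stages. The log2 fold change in controls was -6.46, and the fall with atRA was larger by a log2 difference of -1.84 (SE 0.13, adjusted p = 2.24e-09, edgeR). That SE rests on the same few counts at 12 somites and may understate the error as well. This difference was called whichever of the 12 libraries was left out, at values between -1.94 and -1.76. The transcript was picked for the largest fall under atRA, a choice that itself favours a negative difference. The difference, its p-value and this range therefore describe the transcript and are no independent evidence.

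ENSDART00000023156.6 lost the most CPM among eligible transcripts, although its fold was small. It had more counts than any other ID in each of the 6 atRA libraries. Its level was 6536, 6500 and 6282 CPM in the 12 somites atRA libraries, against 9312, 10009 and 9408 CPM in the 80% epiboly atRA libraries. The groups lay apart, and the edgeR fit put the log2 fold change at -0.55 with SE 0.038 (adjusted p = 2.84e-09). With library totals the log2 fold change was -0.32. In controls it averaged 6603 ± 186 CPM at 12 somites and 10829 ± 370 CPM at 80% epiboly (SD, n = 3 each), a log2 fold change of -0.67. The stage differences with and without atRA differed by 0.1 (SE 0.057), which was not called (adjusted p = 0.199, edgeR). Without replicate 2 of the 80% epiboly controls the difference was 0.15 and was called (adjusted p = 0.0479, edgeR), while over all alternatives adjusted p ran from 0.0479 to 0.727.

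**Figure D4:**
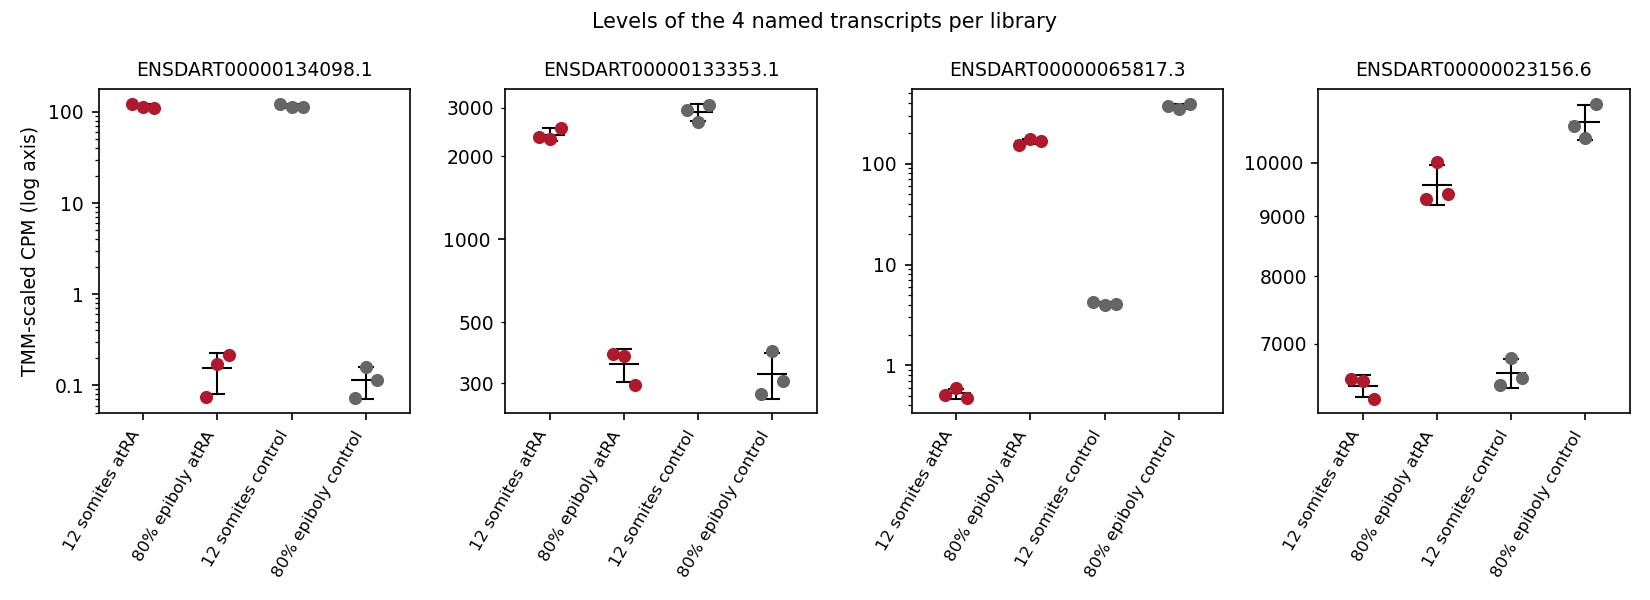
TMM-scaled CPM of the 4 named transcripts on log axes, 1 point per library in the 12 somites atRA, 80% epiboly atRA, 12 somites control and 80% epiboly control groups, with mean and SD (n = 3). ENSDART00000134098.1 stood at 111 to 123 CPM at 12 somites with atRA and at 0.0741 to 0.217 CPM at 80% epiboly with atRA, and ENSDART00000065817.3 was lower with atRA than in controls at both stages.

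The largest fold changes were not isolated. Among eligible rises, the transcript ranked 10 had a log2 fold change of 8.07 and the one ranked 100 had 5.89. Among eligible falls the values at these ranks were -6.08 and -3.98. By level, the rises ranked 10 and 100 had CPM differences of 860 and 215, and the falls at the same ranks had differences of -1696 and -409. On the TMM scale, which does not fix the sum over transcripts, called transcripts gained 169713 CPM and lost 346283 CPM in total. The excess of loss depends on that scaling, since shares of counts over all transcripts must gain as much as they lose. The 100 transcripts with the largest gains made up 25.4% of all CPM gained by called transcripts, and the 100 with the largest losses made up 24.4% of all CPM lost. Transcripts that changed by less than 2-fold contributed 47.3% of the gain and 50.1% of the loss. These parts of gain and loss hold for the TMM scale and shift with the scaling.

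Transcripts that stayed at a similar level were fewer. For 7271 transcripts (17.8% of those tested), the 95% interval of the log2 fold change lay within 0.5 on either side of 0. Of the 7038 that were not called, 3598 met this limit, and the intervals of the others reached beyond 0.5. The remainder of the 7271 were among the calls, so the called transcripts and those at a similar level overlap. Of the 100 most abundant transcripts by mean CPM, 68 were shared by both stages with atRA.

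The stage difference of controls was set beside that of treated embryos, using libraries that the comparisons do not share. In controls 34967 of 41505 transcripts were called (84.2%), 18393 higher at 12 somites (44.3%) and 16574 lower (39.9%). At least 2-fold differences numbered 19718 (47.5%) in controls, 11969 higher (28.8%) and 7749 lower (18.7%). Of 40156 transcripts tested in both comparisons and in the test of the difference, 30377 were called in both, and 97.6% of these had the same direction. Calls with the same direction in controls made up 89% of the calls under atRA and 87.4% of the calls in controls. The log2 fold changes correlated across transcripts at Pearson's r = 0.93 and Spearman's rho = 0.92, a description over transcripts that are not independent.

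Whether the stage difference itself depended on atRA was tested over the 12 libraries by an interaction term between stage and treatment in the edgeR model. The atRA groups had separate exposures, from 30% to 80% epiboly and from 80% epiboly to 12 somites. Rises and falls under atRA are therefore differences between these groups, not a course over time in the same treated embryos. It was called for 11949 of 42956 transcripts (27.8%), and for 3815 with a size of at least 1 on the log2 scale (8.88%), 1114 positive (2.59%) and 2701 negative (6.29%). Among the 33320 calls under atRA with all 3 tests, 10004 (30%) differed from controls by this test. Over all 40156 transcripts with the 3 tests, 6444 differed in the negative direction and 5176 in the positive direction. Of the 17212 that rose under atRA, 3322 differed in the negative direction, a smaller rise than in controls. In the positive direction, 1926 of the 17212 differed. The positive ones comprised 1036 larger rises, 596 transcripts not called in controls and 294 that fell in controls. Differences of at least 1 on the log2 scale numbered 1388 negative and 519 positive. The negative side was also the larger with library totals (1705 and 488) and with DESeq2 size factors (1305 and 586).

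Among the 16108 transcripts that fell under atRA, 2193 differed in the negative direction, and 2563 differed in the positive direction. A positive difference here is a smaller fall than in controls. The negative ones comprised 1156 larger falls, 607 transcripts not called in controls and 430 that rose in controls. Which side was more frequent depended on the scaling: with library totals the numbers were 2429 negative and 1443 positive. At a difference of at least 1, the negative side was the larger with TMM (667 against 333 positive), library totals (657 against 255) and DESeq2 size factors (635 against 364). Selecting falls under atRA favours this order, as transcripts that did not fall in controls can differ only negatively. With TMM, 213 of the 667 were not called in controls and 276 rose there. Among transcripts that fell in both comparisons, 178 were negative and 333 positive. The counts with other scalings were not split this way.

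The levels behind these differences were compared between atRA and controls within each stage, on the TMM scale. Of the 3322 transcripts with a smaller rise under atRA, 3112 had a higher mean CPM with atRA than in controls at 80% epiboly, and 898 had a higher mean CPM with atRA than in controls at 12 somites. A smaller rise by itself favours a higher level with atRA at the earlier stage and a lower one at the later stage, so these counts describe the set and support nothing further. The ratio between atRA and control was wider at 80% epiboly than at 12 somites for 2256 of the 3322 (67.9%). Of the 2563 transcripts with a smaller fall under atRA, the ratio was wider at 80% epiboly for 1758 (68.6%). For the 1036 transcripts with a larger rise under atRA, the ratio was wider at 80% epiboly for 515 (49.7%). Among the 1156 with a larger fall under atRA, the ratio was wider at 80% epiboly for 387 (33.5%), so the classes differed. These ratios come from the libraries that gave the calls and are descriptions.

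A change of direction was rare, with a called difference between the comparisons for 724 of 40156 transcripts. Of these, 294 rose under atRA and fell in controls, and 430 fell under atRA and rose in controls. The changes were mostly small, and their number with other scalings is not given here. The median log2 fold changes of the 294 were 0.39 under atRA and -0.38 in controls, and those of the 430 were -0.58 under atRA and 0.64 in controls. At least 2-fold changes in both comparisons were found for 13 of the 294 and 71 of the 430.

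**Figure D5:**
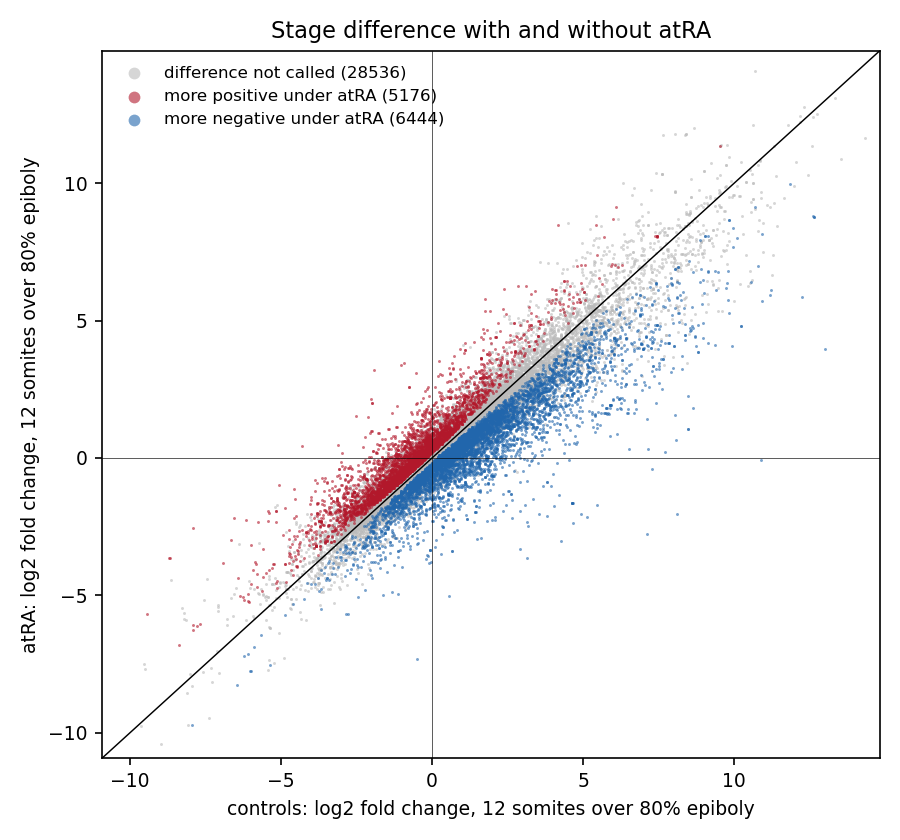
Log2 fold change of 12 somites over 80% epiboly under atRA (vertical axis) against controls (horizontal axis) for 40156 transcripts, each from 3 libraries per group. Blue points (6444) had a stage difference called more negative under atRA and red points (5176) more positive; blue points below the diagonal at the right are the smaller rises under atRA.

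Reads outside the transcript counts differed between the stages as well, as shares of transcript counts and the 3 summary lines given here together. The low quality line was left out of the total, and it equalled the line without a unique alignment in all 18 files. Reads with no feature made up 4.2 ± 0.0847% at 12 somites with atRA and 3.41 ± 0.0727% at 80% epiboly with atRA (SD, n = 3 each). Reads without a unique alignment made up 7.19 ± 0.0725% at 12 somites and 8.43 ± 0.194% at 80% epiboly. Ambiguous reads made up 18.3 ± 0.0406% at 12 somites and 18.7 ± 0.0539% at 80% epiboly. The groups did not overlap in any of the 3 shares, and each had an exact two-sided permutation p = 0.1 (0.1 after Benjamini-Hochberg adjustment), the smallest that 3 against 3 allows. In controls the differences, 12 somites minus 80% epiboly, had the same signs, at 0.88 percentage points for no feature, -0.89 for no unique alignment and -0.38 for ambiguous reads. Their part in the stage differences of transcripts was not tested.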

How the data were processed

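The authors deposited raw counts of reads per Ensembl transcript ID, 1 file per library. The submitters' processing notes name STAR, HTSeq and the build GRCz10 (danRer10); settings, strand use and annotation release are not given in the sources used here. Counts of paralogs, isoforms, overlapping and antisense genes are therefore uncertain: of the tested IDs, 1971 shared identical counts with another in all 6 libraries, in 937 sets. Summary lines were dropped before scaling and testing.

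Tests used edgeR 4.0.16 in R 4.3.3 (filterByExpr, TMM, glmQLFit, glmQLFTest, Benjamini-Hochberg), 12 somites over 80% epiboly, tried on simulated data. In the simulation few transcripts changed, all well counted, with about as many rises as falls. It therefore cannot check the scaling or the error rate where most transcripts differ, as here. SE was obtained as the size of the log2 fold change over the root of its F statistic. Printed CPM are TMM-scaled over all 18 libraries. No replicate pair agreed within sampling noise (chi-square per transcript at least 3.74).

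Named IDs were those with, in each direction, the largest fold and the largest CPM difference among calls with a mean of at least 10 counts in each group, no overlap and counts unlike any other ID's. The 11 gene lists prepared (295 members) could not be matched to IDs, so their counts are void. The comparison, rules and lists were chosen with earlier results of these data known. Alternatives included DESeq2 1.42.0, other scalings and filters, thresholds, a replicate block and leaving out each library. Depth, 77807705 to 105463403 counts, and floors cover counting error only, since these files hold no molecular identifiers.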

Additional observations from a re-analysis of the deposited data

Results flagged for a closer look

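The stage difference was tested against that of controls, and 11949 transcripts differed (edgeR, interaction of stage and treatment). Of the named transcripts, ENSDART00000065817.3 fell further under atRA than in controls, by a log2 difference of -1.84. It was picked for its fall under atRA, which favours that sign. ENSDART00000133353.1 rose less under atRA than in controls, by -0.43, a call that single libraries decided. Groups of 3 libraries were too small to look for a library far from the others.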

How the results depend on the processing

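The count of 33899 transcripts called under atRA stayed within 1.5 times under other scalings, filters, 1 ID per set of identical counts, an adjusted p under 0.01, DESeq2 and a fit of 12 libraries, and ran from 32956 to 34127 without 1 library. Requiring a log2 fold change of at least 1 left 17525, and glmTreat against that size left 14002; in controls these left 19718 and 16254, and for the difference between comparisons 3815 and 1070. All are stricter by construction, as is an adjusted p under 0.01, which left 7342 differences. Without 1 library the differences numbered 9888 to 12541 and the control calls 33961 to 35292. Of the 33899 calls, 30882 were also called with library totals, 30818 of them in the same direction. The share of differences that were more positive under atRA was 44% with TMM and 30.2% with library totals. DESeq2 size factors gave 51.7%. With TMM it was 49.7% without replicate 1 of 80% epiboly atRA, and 49.9, 50.1 and 48.9% without replicates 1, 2 and 3 of the 80% epiboly controls, so the larger side depends on scaling and on single libraries. A floor of 10 counts in place of 3 gave 2808 transcripts at the floor at 80% epiboly and 825 at 12 somites, and a floor of 0 gave 170 and 4. The 44 alternatives for the named transcripts kept direction and call, with log2 fold changes of 9.25 to 9.85, 2.69 to 3.02, -8.36 to -8.05 and -0.58 to -0.32. Differences in read shares kept their signs in all alternatives run.

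Deviations from the group mean correlated between same-numbered libraries at 0.0064, -0.0026 and 0.021 under atRA. In controls the values were -0.0052, -0.041 and -0.039. Such values cannot tell whether same-numbered libraries shared a clutch or a batch. With the replicate block, 33526 transcripts were called under atRA, 34186 in controls and 11298 for the difference.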

Other observations

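The transcripts that rose at least 4-fold under atRA held still more of the counts at 24 hpf, 12.2 to 13.1% with atRA and 13.2 to 14.3% in its controls. The median transcript of these 5813 stood at 0.128 CPM at 80% epiboly, 1.69 CPM at 12 somites and 3.59 CPM at 24 hpf with atRA. At 24 hpf with atRA, 2388 were at least 2-fold above their 12 somites mean, 2923 lay within 2-fold of it and 502 were at least 2-fold below it (log2 of CPM plus 0.1). The 2023 transcripts that fell at least 4-fold held 0.805 to 0.915% of counts at 24 hpf with atRA and 0.85 to 0.983% in controls. Of these, 1329 lay within 2-fold of their 12 somites mean at 24 hpf with atRA. A further 424 were at least 2-fold above it and 270 at least 2-fold below it. Their median level at 12 somites with atRA was 0.262 CPM, so the added 0.1 CPM left rare ones little room for a 2-fold fall. Of the 1029 transcripts at the floor at 80% epiboly with atRA, 896 were above 3 counts in every 24 hpf atRA library, and of the 128 at the floor at 12 somites, 70 were at the floor in every 24 hpf atRA library, which are shallower.

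Among the named transcripts, ENSDART00000133353.1 averaged 2069 ± 111 CPM at 24 hpf with atRA, against 4857 ± 1132 CPM in the controls (SD, n = 3 each). ENSDART00000134098.1 averaged 63.2 ± 7.17 CPM with atRA and 80.3 ± 21.7 CPM in controls. ENSDART00000065817.3 averaged 0.299 ± 0.0765 CPM with atRA and 0.875 ± 0.259 CPM in controls. ENSDART00000023156.6 averaged 5628 ± 1124 CPM with atRA and 4217 ± 563 CPM in controls. These values are descriptions, with no test here.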
